A study of Mus musculus with 22 samples.

Results

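Csf3r, Stat3, Socs1, Socs3 and Il4ra were followed at the transcript level in single cells sorted as neutrophils from the ileum of mice after allogeneic bone marrow transplantation. These 5 genes were chosen by name, as rows of the 22 deposited tables, out of 23091 gene rows in all. They were read in every barcode, that is every well, holding at least 500 transcripts. All recipients were BALB/c mice aged 7 to 9 weeks that received lethal irradiation as 2 doses of 5 Gy on 1 day, and all were given 5000000 bone marrow cells from C57BL/6 donors. In the acute graft-versus-host disease group (aGVHD, 12 libraries) 400000 donor T cells were added to the graft. The control group (10 libraries) received the marrow without T cells. Donor C57BL/6N mice were female and 7 to 10 weeks old, and cells were taken on day 21 from 4 cm segments of intestine after the epithelium had been stripped with EDTA. The sort gate was CD45+H2kb+CD11b+Ly6G+. H2kb marks the donor haplotype, so that host leukocytes and non-haematopoietic cells should fall outside the gate. The question was whether the receptors and the signalling genes of the G-CSF pathway differed between neutrophils of aGVHD and control intestine, and which libraries carried any difference. The labels do not say which mouse each library came from. The p-values therefore reflect variation from library to library, and part of it may be technical.

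Csf3r encodes the receptor for granulocyte colony-stimulating factor (G-CSF), the cytokine that drives granulopoiesis and releases neutrophils from the marrow. The receptor has no kinase of its own and signals through Janus kinases to STAT3, a latent transcription factor that dimerises after phosphorylation and enters the nucleus. STAT3 induces Socs3, whose product binds the receptor complex and shuts signalling off again. Socs1 is a related inhibitor, induced mainly by interferon. Il4ra encodes the chain shared by the receptors for IL-4 and IL-13, which signal through STAT6 and restrain neutrophils.

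The promoters of the 2 inhibitor genes are shown because they hold matches to the elements of these STAT and interferon inputs. RefSeq promoters (build GRCm38.p6, the 250 bases before each gene's start) were found for all 5 members. They were searched on both strands for TTCNNNGAA, the element bound by STAT dimers, for TTCNNNNGAA, the form with longer spacing that STAT6 favours, and for GAAANNGAAA, a tandem element bound by interferon regulatory factors (IRFs). Capitals mark the matches.
Socs3, chr11:117969367-117969616, minus strand: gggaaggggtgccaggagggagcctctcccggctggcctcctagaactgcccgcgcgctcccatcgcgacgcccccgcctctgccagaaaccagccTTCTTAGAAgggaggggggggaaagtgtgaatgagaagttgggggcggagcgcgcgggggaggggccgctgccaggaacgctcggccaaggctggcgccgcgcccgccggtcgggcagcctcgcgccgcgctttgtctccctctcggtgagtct
Socs1, chr16:10785537-10785786, minus strand: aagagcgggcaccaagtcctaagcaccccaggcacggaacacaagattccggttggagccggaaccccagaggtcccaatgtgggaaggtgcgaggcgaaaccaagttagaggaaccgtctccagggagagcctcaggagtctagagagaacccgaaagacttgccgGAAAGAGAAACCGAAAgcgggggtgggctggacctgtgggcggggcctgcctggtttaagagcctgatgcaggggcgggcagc
The Socs3 window held 1 STAT element, TTCTTAGAA, 154 to 146 bases upstream of the start. The Socs1 window held 2 IRF elements that overlap each other, GAAAGAGAAA from 83 to 74 bases and GAAACCGAAA from 77 to 68 bases upstream. None of the 3 patterns occurred in the same windows of Csf3r, Stat3 or Il4ra. Of 27025 mouse promoters of this length, 7.18% held the STAT pattern, 5.87% the STAT6 pattern and 3.04% the IRF pattern. A match of letters is not evidence of binding.

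The libraries held between 45607 and 360054 transcripts. Between 74 and 95 barcodes passed the limit of 500 transcripts in the aGVHD libraries (1025 in all), against 11 to 60 in the control libraries (358 in all). Control replicates 5, 9 and 10 held 12, 12 and 11 cells. No column of 1 library was repeated in another. Rows that name a gene, leaving out numbered gene models and clones, took 21.3% to 67.8% of the transcripts in aGVHD libraries and 21.8% to 64.8% in control libraries. Clustering without the 5 members placed 693 of the 1383 cells in clusters that raised neutrophil markers, called neutrophil-like here. A further 96 cells were macrophage/monocyte-like, 28 epithelial-like, 27 B/plasma-like and 539 in clusters that stayed unnamed, so the gate was not pure by transcript. Of 32 neutrophil markers 30 were in the tables, and each of these was detected in both groups. The neutrophil-like share of cells was 53.1 ± 16.4% in aGVHD libraries and 36.4 ± 13.2% in control libraries (SD, n = 12 and 10). The macrophage/monocyte-like share was 5.54 ± 2.82% in aGVHD libraries and 10.3 ± 4.37% in control libraries. Titles fall into a set that carries a date (8 aGVHD and 6 control libraries) and a set that carries G1 (4 and 4), and this set was a term in the fit.

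Over all gated cells, transcripts of Csf3r, the G-CSF receptor, were higher in aGVHD than in control libraries, by 0.52 ± 0.16 on the log2 scale (SE). The level per library, in transcripts per 1000000 of the scaled library total (CPM), was lowest at 457, had a median of 792 and reached 1164 in the 12 aGVHD libraries. In the 10 control libraries it was 250 at the lowest, 504 at the median and 959 at the highest. The groups overlapped: 3 aGVHD libraries lay above every control library, and 4 control libraries lay below every aGVHD library. These ranks are of scaled levels, and the scaling factors ran from 0.451 in aGVHD replicate 5 to 1.56 in aGVHD replicate 11. In the G1 set taken alone the scaled levels did not overlap, with 457 to 789 CPM in aGVHD libraries and 250 to 406 CPM in control libraries. Per unscaled total they did overlap: aGVHD replicate 3 held 151 Csf3r transcripts of 315663, and control replicate 8 held 99 of 203372. The adjusted p was 0.049 (limma, Benjamini-Hochberg over 2382 genes), just inside the threshold of 0.05. Of those 2382 genes 125, or 5.25%, passed in either direction and 2.56% passed as higher in aGVHD. Csf3r was the only one of the 4 members tested that did. Without 96 cells of very high total or a high share of Kcnq1ot1, a nuclear RNA, the difference was 0.28 (adjusted p = 0.33), and this was 1 of 12 settings, of 17 tried beside leaving out libraries, that ended the call. In such a sum over a library, more neutrophil-like cells and more Csf3r per cell cannot be told apart. The summed level of the 30 neutrophil markers also had a higher median in aGVHD libraries. It was 29638 to 109730 transcripts per 1000000 transcripts of named genes in aGVHD libraries (median 44345), and 16630 to 35690 in control libraries (median 25332). Whether it followed Csf3r from library to library was not tested.

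Within the neutrophil-like cells alone, Csf3r showed little difference between the groups. Its level was 870 to 1752 CPM in 12 aGVHD libraries (median 1499; mean 1372 ± 294, SD) and 845 to 1781 CPM in the 6 control libraries with at least 10 such cells (median 1324; mean 1288 ± 313). The 2 ranges were nearly the same, and the highest value of all was in control replicate 3. Without that library 7 aGVHD libraries lay above every control library. Leaving out the highest control library, here and for the genes below, can only raise such a count or leave it unchanged. The difference was 0.08 ± 0.16 (SE, log2; adjusted p = 0.868, limma). In this comparison 1 of 1392 genes passed, or 0.0718%, and no member did.

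Il4ra, the shared IL-4 and IL-13 receptor chain, did not pass the test in either population. In all gated cells together it was at 47.4, 68.4 and 132 CPM (lowest, median, highest) in aGVHD libraries and at 0, 58.5 and 180 CPM in control libraries, and the difference was 0.37 ± 0.25 (SE, log2; adjusted p = 0.412, limma). The 2 highest values were in control replicates 6 and 9, which hold 19 and 12 cells, and the 0 was in control replicate 5, which has no row for the gene. In neutrophil-like cells the values were 86.3, 119 and 251 CPM in aGVHD libraries and 67.7, 90.2 and 127 CPM in control libraries. There 11 of 12 aGVHD libraries lay above the control median and 4 lay above the highest control library, control replicate 1; without that library 11 lay above the next. The difference was 0.49 ± 0.29 (SE, log2; adjusted p = 0.577, limma).

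Stat3, the transducer below the G-CSF receptor, was higher in most aGVHD libraries over all gated cells, but stopped just short of the threshold. Its level was 104, 167 and 259 CPM (lowest, median, highest) in aGVHD libraries and 40.1, 117 and 150 CPM in control libraries. In all, 9 of 12 aGVHD libraries lay above the highest control library. The difference was 0.65 ± 0.20 (SE, log2; adjusted p = 0.057, limma). A low-count filter set by the smaller group instead of by the design gave 0.64 with adjusted p = 0.047, so the call depended on the filter. In neutrophil-like cells Stat3 averaged 246 ± 69.9 CPM in aGVHD libraries and 187 ± 63.1 CPM in control libraries (SD, n = 12 and 6). Here 3 aGVHD libraries, aGVHD replicates 3, 4 and 6, exceeded the highest control library, control replicate 7, without which the count was 7. The difference was 0.32 ± 0.21 (SE, log2; adjusted p = 0.633, limma).

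**Figure D1:**
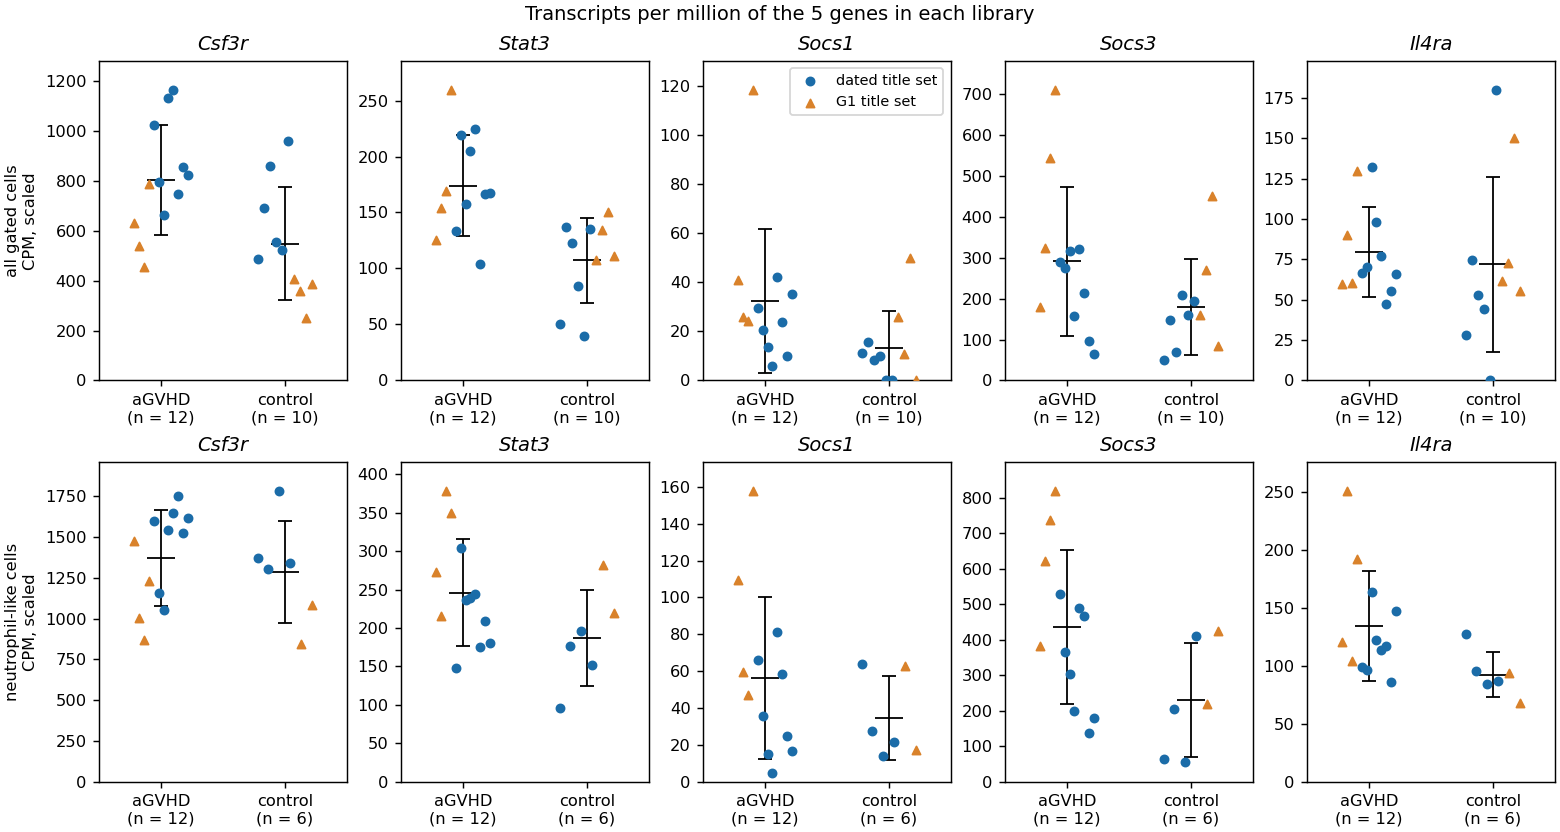
Each point is 1 library and the vertical axes give CPM of the scaled library total, for all gated cells (upper row) and for neutrophil-like cells (lower row); bars are mean and SD, and colours mark the title set. Over all gated cells 9 of 12 aGVHD libraries lay above every control library for Stat3, and 1 aGVHD library stood at 118 CPM for Socs1, while in neutrophil-like cells the Csf3r ranges of the groups were nearly the same.

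Socs3, the inhibitor induced by STAT3, varied widely between libraries and did not pass. Over all gated cells it was at 65.8, 282 and 710 CPM (lowest, median, highest) in aGVHD libraries and at 50.2, 159.8 and 450.4 CPM in control libraries. The groups overlapped over most of their range, with 2 aGVHD libraries above the highest control library. That library, control replicate 9, held 18 transcripts in 12 cells, 15 of them in 1 cell, and without it 7 aGVHD libraries lay above the next, at 269 CPM. The difference was 0.76 ± 0.34 (SE, log2; adjusted p = 0.17, limma). In neutrophil-like cells the fitted difference was larger, 1.01 ± 0.37 (SE, log2), and the adjusted p was 0.402. There Socs3 was at 136, 425 and 818 CPM in aGVHD libraries and at 56.1, 212 and 423 CPM in control libraries. In these cells 6 of 12 aGVHD libraries lay above the highest control library, and 9 of 12 above the control median. Control replicates 1 and 3, at 63.6 and 56.1 CPM, were the only libraries under 100 CPM, and without control replicate 3 the difference was 0.71. The unadjusted p for Socs3 in neutrophil-like cells was 0.012, in a table where 9.48% of genes had an unadjusted p under 0.05. That share was 22.3% over all gated cells, and Csf3r, Stat3 and Socs3 were among them.

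Socs1, the inhibitor tied to interferon signalling, was sparse and fell below the low-count filter. In all, 113 transcripts were found in 69 of 1025 aGVHD cells and 20 transcripts in 17 of 358 control cells. Per library the level was 5.95, 24.9 and 118 CPM (lowest, median, highest) in the aGVHD group and 0, 10.4 and 50.05 CPM in the control group, where replicates 5, 6 and 10 had none. There 1 aGVHD library lay above control replicate 9, which had 2 transcripts, and 6 did once that library was left out. With no filter the difference was 1.04 ± 0.38 (SE, log2; adjusted p = 0.043, limma). That fit called 7282 of 22839 genes, 6839 of them lower in aGVHD, and 1.94% of its genes as higher in aGVHD. In the dated set alone the unfiltered difference was 0.90 (adjusted p = 0.308), and in the G1 set alone it was 1.31 (adjusted p = 0.269). In neutrophil-like cells the unfiltered difference was 0.57 ± 0.47 (SE, log2; adjusted p = 0.445, limma).

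The libraries that carried each gene differed. aGVHD replicate 4 held 42 of the 113 Socs1 transcripts of its group (37.2%) in 8.68% of the cells, 12 of them in 1 cell. Without it the aGVHD mean of Socs1 was 24.7 ± 11.8 CPM (SD, n = 11), against 32.5 ± 29.3 CPM with it, and 13.2 ± 15.2 CPM in the 10 control libraries. The same library held 252 of the 1078 Socs3 transcripts of the aGVHD group (23.4%), and aGVHD replicates 3 and 7 held 180 and 160. Without aGVHD replicate 4 the Socs3 mean was 253 ± 133 CPM (SD, n = 11), against 179 ± 117 CPM in control libraries. Csf3r and Stat3 were spread more evenly, with the leading aGVHD library holding 13.8% and 14.6% of the group's transcripts. The fitted differences over all gated cells kept their sign whichever library was left out. They ran from 0.46 to 0.62 for Csf3r, from 0.50 to 0.75 for Stat3, from 0.61 to 0.93 for Socs3 and from 0.21 to 0.47 for Il4ra. For all 4 genes the lowest value was the one without control replicate 1. The Csf3r call was less stable than its size: it held without 1 of aGVHD replicates 3, 7, 10 and 12 or control replicates 3, 6 and 7, and was lost without any other single library, 15 of 22. Stat3 passed without aGVHD replicate 1 (0.73, adjusted p = 0.036) and without aGVHD replicate 10 (0.74, adjusted p = 0.031).

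**Figure D2:**
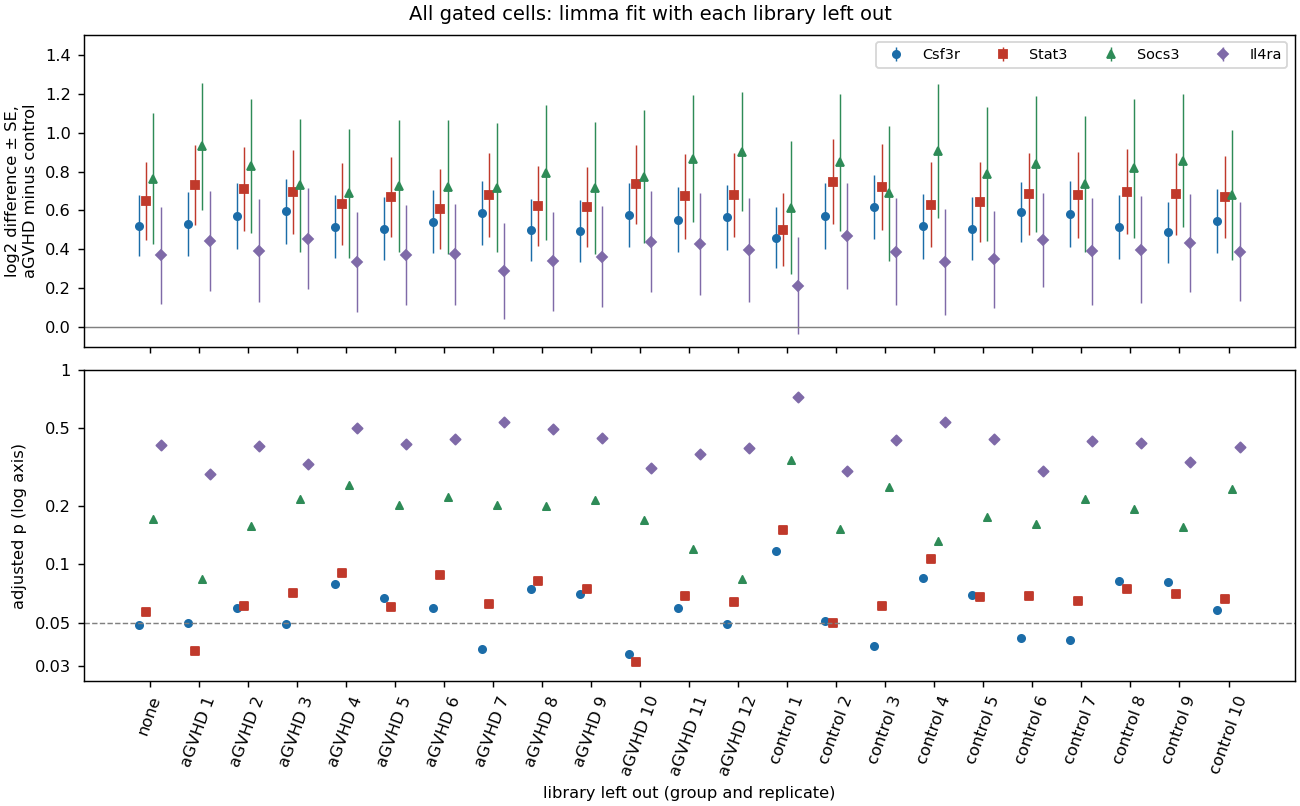
Upper panel: fitted log2 difference (aGVHD minus control) ± SE for 4 members over all gated cells, with no library or the named library left out; lower panel: adjusted p on a log axis, with a dashed line at 0.05. All differences stay above 0, the adjusted p of Csf3r crosses the line in 15 of 22 cases, and that of Stat3 drops below it in 2.

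The share of cells with at least 1 transcript was compared after thinning every cell to 500 transcripts, which makes the total equal but not the number of transcripts of named genes. The mean share over all gated cells was higher in the aGVHD libraries for each member, and none passed after adjustment: 0 of 9171 genes (0%) did in either population, while 10.6% over all gated cells and 6.8% in neutrophil-like cells had an unadjusted p under 0.05. Csf3r was found in 35.4 ± 10.0% of cells in aGVHD libraries and 27.7 ± 8.48% in control libraries (SD, n = 12 and 10; exact two-sided permutation p = 0.067, adjusted 0.503). For Stat3 the shares were 10.3 ± 3.50% and 6.41 ± 3.41% (aGVHD and control; exact permutation p = 0.019, adjusted 0.372). For Socs3 they were 12.96 ± 7.05% and 7.82 ± 4.33% (exact permutation p = 0.027, adjusted 0.398). These 2 genes thus had an unadjusted p under 0.05, as had Socs1 with 1.83 ± 1.46% in aGVHD libraries and 0.751 ± 0.822% in control libraries (exact permutation p = 0.016, adjusted 0.353). Il4ra was at 4.75 ± 2.53% in aGVHD libraries and 3.42 ± 1.81% in control libraries (exact permutation p = 0.178, adjusted 0.67). In neutrophil-like cells Socs3 was the only member with an unadjusted p under 0.05, found in 18.2 ± 7.30% of cells in aGVHD libraries and 10.8 ± 5.05% in control libraries (n = 12 and 6; exact permutation p = 0.021, adjusted 0.718). The Csf3r share in these cells was 49.4 ± 11.1% in aGVHD libraries and 47.8 ± 12.6% in control libraries (exact permutation p = 0.752). Stat3 was at 13.3% and 10.7%, Il4ra at 7.55% and 4.99%, and Socs1 at 2.48% and 2.06% (aGVHD and control; exact permutation p = 0.133, 0.082 and 0.56 in that order). Without thinning, the all-cell shares were 72.6% and 66.9% for Csf3r, 37.1% and 28.2% for Stat3, and 37.3% and 29.7% for Socs3 (aGVHD and control). In an alternative chosen after seeing the data, each cell was thinned to 200 transcripts of named genes. The all-cell difference in the share was then 4.05 percentage points for Csf3r and 0.091 for Il4ra, against 7.70 and 1.33 with 500 transcripts of any kind. For Stat3 it was 2.93, for Socs3 3.59 and for Socs1 0.875 points, with an exact permutation p of 0.0071, 0.044 and 0.021 in that order and none past adjustment. The share of all genes with an unadjusted p under 0.05 in this alternative is not given here. No result about the members is therefore read from these p-values.

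**Figure D3:**
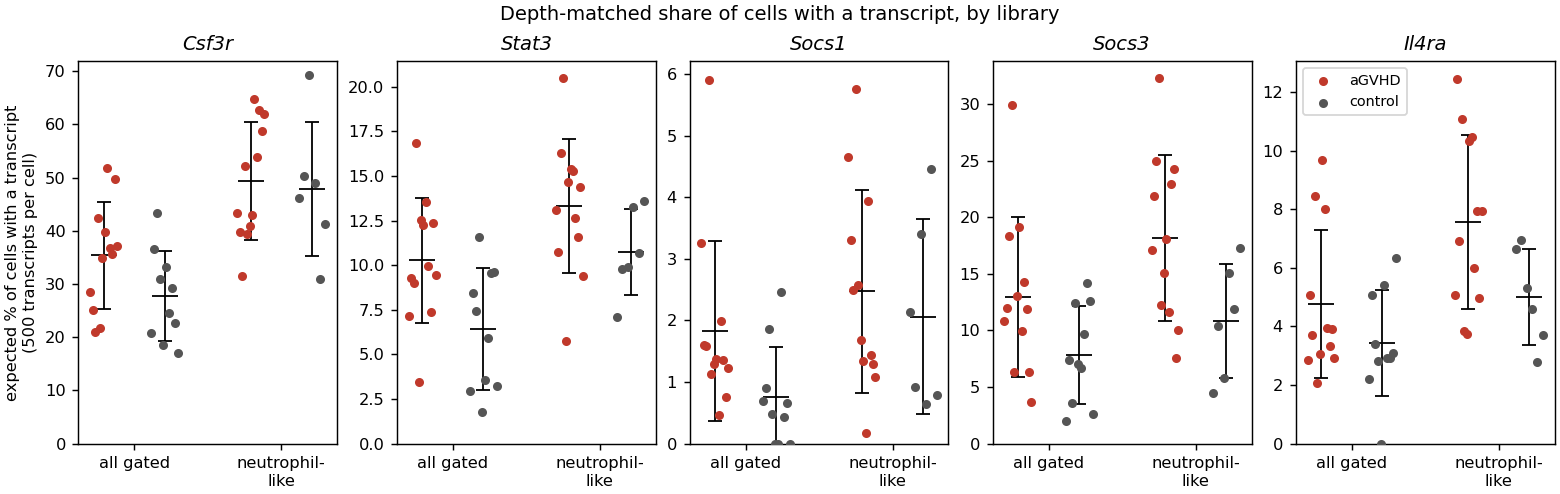
Each point is 1 library and gives the expected percentage of cells with at least 1 transcript of the gene when each cell is thinned to 500 transcripts, with mean and SD, for all gated cells and for neutrophil-like cells. In neutrophil-like cells the Csf3r share averages 49.4% in aGVHD and 47.8% in control libraries, while Socs3 averages 18.2% in aGVHD and 10.8% in control libraries.

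Whether the aGVHD effect differed between the title sets was tested as an interaction (G1 minus dated). It was 0.31 ± 0.34 for Csf3r, −0.37 ± 0.43 for Stat3, 0.17 ± 0.69 for Socs3 and −0.40 ± 0.53 for Il4ra (SE, log2). None passed (adjusted p from 0.969 to 0.981, limma), nor did any of the 2812 genes tested (0%), of which 137 had an unadjusted p under 0.05. Within the sets the Csf3r difference was 0.43 in the dated and 0.73 in the G1 libraries, and neither passed on its own.

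Levels by cell class are descriptions with no test, given per 1000000 transcripts of named genes with 95% counting intervals, which cover counting error only. Csf3r, the receptor, was highest in neutrophil-like cells. It stood at 2410 (2318 to 2505) there, at 1107 (824 to 1455) in the B/plasma-like cells, at 432 (378 to 491) in the cells called macrophage/monocyte-like, and at 428 (351 to 516) in the epithelial-like cells. The 5 unnamed clusters ran from 933 to 1791. After thinning it was found in 48.9% of neutrophil-like, 35.2% of B/plasma-like, 15.6% of macrophage/monocyte-like and 12.5% of epithelial-like cells, at median depths of 2281, 1261, 6670 and 13536 transcripts. Epithelial and B-lineage cells should lack this receptor, and their shares differ, so no single level of background can be read from them. Whether doublets or free RNA gave these transcripts was not tested. Stat3 was at 458 in neutrophil-like, 271 in macrophage/monocyte-like cells and 118 in epithelial-like cells. Il4ra had the same order, 240.2, 152 and 51.0. Socs3 did not follow this order: it stood at 694 (645 to 746) in neutrophil-like and 695 (626 to 769) in macrophage/monocyte-like cells, and at 129.5 in epithelial-like cells. Socs1 was at 87.3 in neutrophil-like cells, 37.1 in macrophage/monocyte-like cells, 3.93 in epithelial-like cells, and at 0 in 27 B/plasma-like cells, where the counting interval reached 80.0. Each table lists 192 barcodes, and 1 set of 96 held most of the transcripts. The barcodes of the other set with under 500 transcripts gave another background. There Csf3r was at 212 in aGVHD and 303 in control libraries, against 1674 and 1191 in kept cells (aGVHD and control). Socs1 was at 68.7 in kept aGVHD cells and at 48.9 in the unused aGVHD barcodes, on 6 transcripts, and at 27.5 in kept control cells and 106 in the unused control barcodes, on 7 transcripts. Over all kept cells its level could thus not be told from this background in either group. In the set of 96 that held most transcripts, barcodes under 500 transcripts had Socs1 at 0 in aGVHD and 16.3 in control libraries. Whether those barcodes held cells was not tested.

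Between the groups, the pooled level of Socs3 in neutrophil-like cells was 755 (698 to 815) in aGVHD and 431 (345 to 532) in control. The macrophage/monocyte-like cells showed the same order, 790 (697 to 891) in aGVHD and 541 (445 to 651) in control. The aGVHD level leaned on aGVHD replicates 3, 4 and 7, which supplied 208 of the 264 aGVHD transcripts from 17 of 57 cells. In these libraries 1 such cell each held 36, 38 and 40 of them in that order, which the counting intervals do not allow for. Without these libraries the aGVHD level was 298 (225 to 388), below the level of the control cells, from which no library was left out. These libraries were picked for their high Socs3, so a fall was bound to follow. The control cells were uneven too: control replicates 8 and 9 supplied 32 and 17 of their 111 transcripts, from 5 and 2 of 39 cells. There 1 cell each held 21 and 15 of them in that order. In neutrophil-like cells without the same aGVHD libraries the aGVHD level was 622 (556 to 693). Stat3 was at 473 in aGVHD and 391 in control neutrophil-like cells, and at 308 in aGVHD and 209 in control macrophage/monocyte-like cells. Csf3r was at 2390 in aGVHD and 2497 in control neutrophil-like cells. The cells that supplied the Socs3 transcripts differed: in aGVHD 60.7% came from neutrophil-like and 24.5% from macrophage/monocyte-like cells, and in control 34.5% and 44.6%. Macrophage/monocyte-like cells were 5.56% of the aGVHD and 10.9% of the control cells, and the larger share of the control Socs3 transcripts came from them. The summed level of the 19 macrophage and monocyte markers in the tables was 3034 to 18493 in aGVHD libraries (median 7213) and 1169 to 18773 in control libraries (median 5926), and its part in the all-cell Socs3 level was not tested. For Csf3r 75.1% of transcripts in aGVHD and 57.6% in control came from neutrophil-like cells.

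Among the neutrophil-like clusters the inhibitors and the receptor peaked in different cells. A cluster of 43 cells was led by Cxcl10, Gbp5, Cxcl9, Cxcl3 and Irgm1, which apart from Cxcl3 are genes induced by interferon. It had Socs1 at 425 (285 to 611), against 43.3 to 87.2 in the other 6 clusters. It also had the highest Socs3, 1569 (1286 to 1896). This cluster raised 6 neutrophil markers, the fewest that allow the name, against 9 or more in each other neutrophil-like cluster. It supplied 30.5% of the Socs1 transcripts of aGVHD neutrophil-like cells from 5.87% of the cells, and 36.4% of those of control from 7.43% of the cells. Its aGVHD part leaned on 1 library: 15 of its 25 Socs1 transcripts came from 8 cells of aGVHD replicate 4. Of these 15, 12 came from 1 cell, which the counting intervals do not allow for. Without that library the aGVHD level of the cluster was 282 (135 to 519). A cluster of 74 cells led by G0s2, Il1b, Osm and Zfp36, genes of an acute inflammatory response, had the next highest Socs3, 1207 (1007 to 1435), while its Socs1 was 56.6. In that cluster Socs3 was at 1457 (1190 to 1765) in 50 aGVHD cells and 693 (444 to 1031) in 24 control cells. Control replicate 8 supplied 18 of the 24 control transcripts from 6 cells, and without it the control level was 255 (93.5 to 554). aGVHD replicate 4 supplied 38 of the 104 aGVHD transcripts, from 13 cells. Csf3r had another order. It was highest, at 3256 (2912 to 3630), in a cluster led by Asprv1, Stfa2 and Slfn4. It was lowest, at 1675 (1502 to 1862), in a cluster led by the granule protein genes Ngp, Camp and Ltf, which held 71 aGVHD and 2 control cells, and at 1701 (1405 to 2040) in the cluster led by Cxcl10. Stat3 ran from 396 to 529 and Il4ra from 169.6 to 337 across the neutrophil-like clusters, and for either gene the counting intervals of all of them overlapped.

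**Figure D4:**
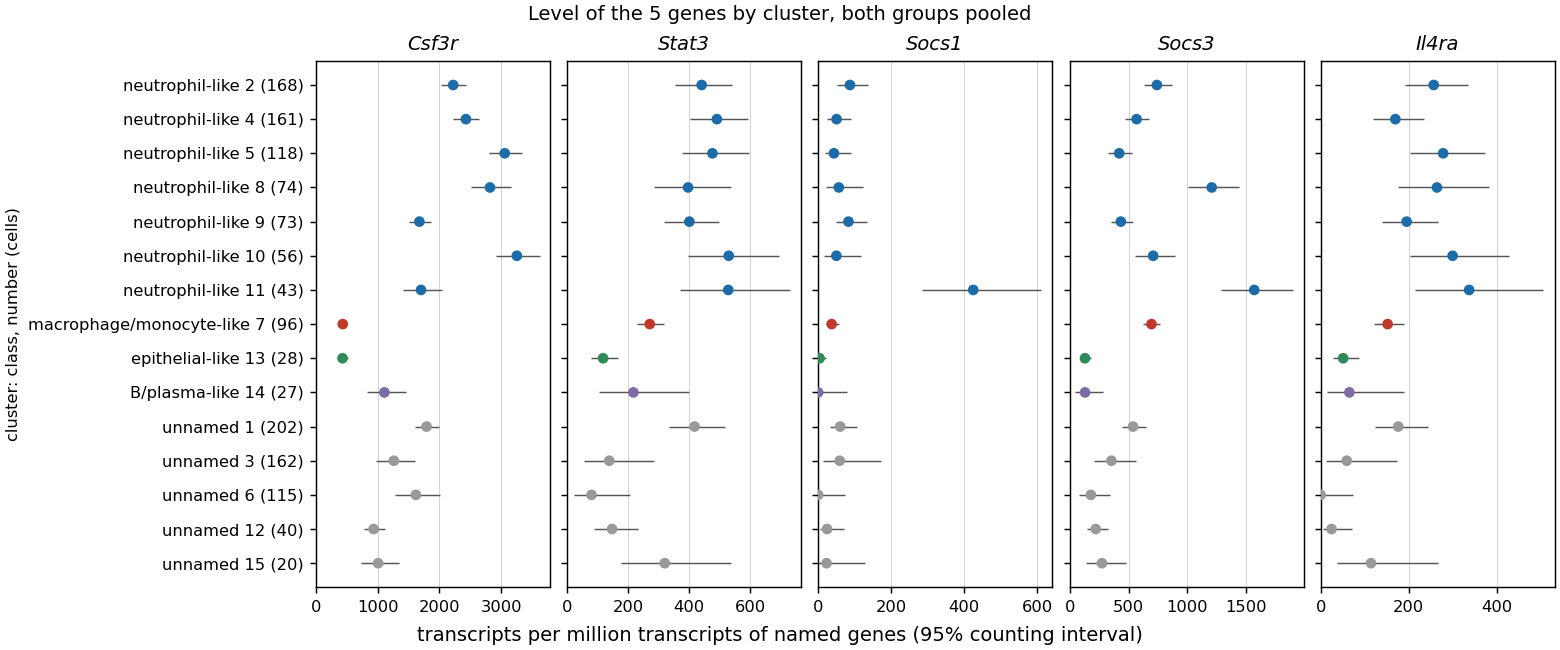
The horizontal axes give transcripts per 1000000 transcripts of named genes in each cluster, both groups pooled, with 95% counting intervals; rows give class, cluster number and number of cells. Socs1 peaks at 425 in neutrophil-like cluster 11 and Socs3 at 1569 in the same cluster, while Csf3r is at 1675 or more in each neutrophil-like cluster, against 1107 in the B/plasma-like cluster, 432 in the macrophage/monocyte-like and 428 in the epithelial-like one. Unnamed clusters 1 and 6, at 1791 and 1618, lie near the lowest neutrophil-like clusters for Csf3r.

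Lcn2, which gives the study its title, encodes a siderophore-binding granule protein of neutrophils. In the 5 aGVHD libraries with at least 5 neutrophil-like cells of each kind, 103 Lcn2-positive cells were compared with 179 Lcn2-negative cells, each thinned to 500 transcripts. Csf3r was at 1650.5 per 1000000 thinned transcripts in positive and 1419 in negative cells, a difference of 0.08 ± 0.23 (SE, log2; adjusted p = 0.843, limma). Socs3 was at 641 in positive and 547 in negative cells (0.09 ± 0.38, SE, log2; adjusted p = 0.893, limma). Neither passed, while 44 of 272 genes tested (16.2%) did. The other members fell below the filter. Pooled over cells, Stat3 was at 447 in positive and 402 in negative cells, and Il4ra at 155 and 168. As means over the 5 libraries the order turned for both genes, with Stat3 at 386 in positive and 411 in negative cells and Il4ra at 195 and 171. With no filter the fitted difference was −0.49 for Stat3 and 0.003 for Il4ra (log2). Socs1 had 7 transcripts in positive and 3 in negative cells. Socs3 varied by library more than by Lcn2, from 0 to 2571 in positive cells and from 46.5 to 947 in negative cells. No difference of a member with Lcn2 status was detectable at this depth, and another random thinning turned both signs (−0.02 for Csf3r and −0.68 for Socs3). That thinning also changed the libraries compared: aGVHD replicates 1, 2 and 8 then held at least 5 cells of each kind and were added.

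The rest of the pathway was read from lists of genes, set beside the 5.25% of all 2382 genes that passed and the 2.56% that passed as higher in aGVHD. Over all gated cells 1 of 13 cytokine receptor genes tested passed, Il6ra, the IL-6 receptor chain that feeds STAT3, with 94.8 ± 20.6 CPM in aGVHD and 46.6 ± 22.3 CPM in control libraries (0.83; adjusted p = 0.029, limma). Each of the 13 had a fitted difference above 0, with a median of 0.43, against −0.01 over all genes tested. None of the 5 kinases and STATs tested passed: Jak1 was at 154 ± 43.4 CPM in aGVHD and 145 ± 43.6 in control libraries, and Jak2 at 101 in both groups. Of 3 other negative regulators tested 1 passed, Ptpn1, a phosphatase that acts on Janus kinases (0.67; adjusted p = 0.045). That call held without aGVHD replicate 10 or 12 or control replicate 2, 3 or 7, and was lost without any other single library. Of 14 STAT3 target genes 2 passed as higher in aGVHD, against 2.56% of all genes. These were Mcl1, a survival factor (875 ± 175 CPM in aGVHD and 558 ± 159 in control; 0.63; adjusted p = 0.026), and Il1rn, the IL-1 receptor antagonist (852 ± 188 CPM in aGVHD and 537 ± 142 in control; 0.64; adjusted p = 0.026). The median of those 14 was 0.11.

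Of 12 interferon target genes tested, 1 passed: Gbp7, a guanylate-binding protein, with 257 ± 91.0 CPM in aGVHD and 125 ± 68.7 in control libraries (1.02; adjusted p = 0.025, limma). The median of the 12 was 0.53. Of 2 IL-4 and STAT6 targets tested Chil3, a chitinase-like protein, passed at 264 ± 262 CPM in aGVHD and 5.52 ± 7.08 in control libraries (4.64; adjusted p = 0.028, limma), with a range from 0 to 693 among aGVHD libraries. Chil3 is also made by maturing neutrophils. Without control replicate 1 the calls of Il6ra, Mcl1, Il1rn, Gbp7 and Chil3 were lost too (adjusted p from 0.0550 to 0.0843). Each of 3 settings ended all 6 of the list calls, Ptpn1 included: scaling by the library total alone, leaving out the 96 cells of very high total or high Kcnq1ot1, and keeping only libraries of at least 20 cells. In all, the calls ended in 9 of the 17 settings other than leaving out libraries for Il6ra, Mcl1 and Il1rn, in 10 of 17 for Ptpn1, in 7 of 17 for Gbp7 and in 3 of 13 for Chil3. Il6ra was also lost without control replicate 4, and Chil3 without aGVHD replicate 3, aGVHD replicate 4 or control replicate 8. Among the ligands, Osm, a cytokine of the IL-6 family, was at 168 ± 142 CPM in aGVHD and 81.7 ± 45.7 in control libraries and did not pass (0.25; adjusted p = 0.806). Il6 and Il10 were too sparse to test, at 9.76 and 11.4 CPM in aGVHD and 7.42 and 4.40 CPM in control libraries. In neutrophil-like cells no gene of these lists passed. There Gbp7 and Chil3 had differences of 0.79 and 3.87, and Il6ra, Ptpn1, Mcl1 and Il1rn of at most 0.12. The STAT3 targets had a median of −0.27 there, and the receptors of 0.21, against −0.04 over all genes. The clustering that set the neutrophil-like class drew on marker and list genes, though not on the members. Differences of list genes within this class are thus not independent of how its cells were chosen.

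The genes with the most similar pattern to each member were taken from 9 combinations of group and cell class that hold at least 10 cells, by Pearson's r of log2 CPM over 2381 other genes. They are a description, since the combinations share libraries and depth. Csf3r lay nearest to Slc2a3, a glucose transporter (r = 0.981), Il1r2, a decoy receptor for IL-1 (0.980), and Hdc, which makes histamine (0.978). Il1r2 and Hdc are also neutrophil markers used to cluster and name the classes, so their r with Csf3r is not independent of these classes. Stat3 lay nearest to Pkm, a glycolytic enzyme (0.982), Gpcpd1 (0.980) and Svil (0.978). Socs3 lay nearest to Ctsd, a lysosomal protease (0.976), Ubash3b (0.971) and Atp6v1a, a proton pump subunit (0.964), genes that macrophages also express. Il4ra lay nearest to Crlf2, a cytokine receptor chain (0.971), Zyx (0.968) and Parp14 (0.961).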

How the data were processed

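Single cells sorted from mouse ileum were sequenced by CEL-Seq2, per the labels' protocols. The submitters' processing notes name bcl2fastq 2.17.1.14 and BWA 0.6.2-r126. Genome build and annotation: not given in the sources used here. The authors deposited 1 table per library of estimated transcript counts per gene and barcode, corrected for collisions among 4096 molecular identifiers. Values were rounded to whole transcripts, and cells of at least 500 were kept. The members and all lists were chosen with earlier results of these data known. Cells were clustered with leidenalg 0.10.2 and igraph 0.11.9 (Python 3.11.15) on 197 marker and list genes without the members. Clustering depth was the transcripts of named genes, a choice made after 2 totals were compared. A class needed 6 raised markers, and these naming thresholds were set after the data were seen. No doublet caller was run.

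Transcripts were summed per library, scaled by a trimmed mean and fitted with limma 3.58.1 (R 4.3.3, voom weights, title set as a term), with Benjamini-Hochberg adjustment over all genes passing the low-count filter (10 transcripts at the median library, 15 in all). The filter was set to its design-based form after first fits had been seen, to match the earlier processing. The code was tested on simulated data with a dispersion of 0.2. Of genes changed by 1 on the log2 scale, it recovered 46% over all gated cells, 23% in neutrophil-like cells and 17.6% by Lcn2 status. Of genes changed by 2 it recovered 99%, 90% and 76.5% in that order. Libraries of 45607 to 360054 transcripts set the precision. Shares were compared by exact two-sided permutation tests within title sets (scipy 1.17.1). Replicate numbers were not used to pair the libraries, since no label ties them to mice. By a fixed rule the text names all 5 members, list genes that passed or else the 3 with the highest mean level of a list, and for each filtered member the 3 genes nearest to it. One list gene that this rule names is not reported here.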

Additional observations from a re-analysis of the deposited data

Results flagged for a closer look

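The Socs1 level over all gated cells in control replicate 9, 50.05 CPM, stood apart from the other 9 control libraries, of which the next was at 25.7 CPM. Its gap to that value was 0.487 of the group's range, above the limit of 0.466 for 10 samples. That library held 12 kept cells. It was the only one of 20 sets of control values looked at in this way, and chance alone gives about 1 in 20. The aGVHD group, with 12 libraries, was outside this check, which covers 4 to 10 samples. There Socs1 in aGVHD replicate 4 was at 118 CPM, and the next library was at 42.1 CPM.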

How the results depend on the processing

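The Csf3r difference over all gated cells, 0.52, lost its call with the library total alone (0.57), without voom weights (0.54), with a minimum of 250 transcripts (0.51), in the dated set (0.43; 0.64 with no filter), in the G1 set (0.73; 1.097 with no filter), without the title set (0.53), without 96 cells of very high total or high Kcnq1ot1 (0.28) and in libraries of at least 20 cells (0.54). Stat3 passed with named genes only (0.69), no filter (0.93), the smaller-group filter (0.64) and a minimum of 1000 transcripts (0.70), and Socs3 with no filter (1.01). With no filter 7282 of 22839 genes passed in either direction, and 1.94% passed as higher in aGVHD. The shares of all genes that passed with the smaller-group filter or the minimum of 1000 transcripts are not given here. Unfiltered Socs1 lost its call with either title set alone (0.90 dated, 1.31 G1). The replicate block (title number, dated libraries) gave 0.54 for Csf3r, against 0.45 for the same libraries with no replicate block, and called 46 genes against 7. In neutrophil-like cells these values were −0.12 and −0.13. Title numbers were not taken as pairs, since no label ties the libraries to mice. Over all gated cells 4 of 6 correlations between libraries of the same number exceeded 0.1, and 2 of 6 libraries correlated best with their own number. In neutrophil-like cells 2 of 4 exceeded 0.1, at 0.17 and 0.36, and these correlated best with their own number. Whether title numbers mark pairs was thus not settled. Other reversals in neutrophil-like cells were Csf3r in libraries of at least 5 such cells (−0.020), unfiltered Socs1 in the dated set (−0.024), and, in the dated set, the shares of Csf3r (−0.50 points) and Socs1 (−0.083 points). By Lcn2 status Csf3r was −0.14 with no filter and −0.019 with another seed, and Socs3 was −0.30, −0.68 and, with at least 3 cells of each status, −0.22. The other seed also added aGVHD replicates 1, 2 and 8 to the libraries compared. The cause of these changes was not tested.

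Leaving out 1 library gave 0.46 to 0.62 for Csf3r, 0.50 to 0.75 for Stat3, 0.61 to 0.93 for Socs3 and 0.21 to 0.47 for Il4ra over all gated cells. In neutrophil-like cells the ranges were 0.03 to 0.15, 0.24 to 0.40, 0.71 to 1.19 and 0.35 to 0.56. By Lcn2 status they were −0.0065 to 0.23 for Csf3r and −0.19 to 0.44 for Socs3, and for the neutrophil-like share of Csf3r −1.85 to 5.82 points. The count of genes called over all gated cells, 125, ranged from 41 to 166 with 1 library left out. It was 0 with the library total alone, 4 without the high-total cells, 3 in libraries of at least 20 cells and 7282 with no filter. With named genes only, 81 genes were higher and 45 lower in aGVHD, against 61 and 64. By Lcn2 status 44 genes became 3 without the granule gene cluster. Depth limits the sparse genes: Socs1 had 20 transcripts in the 358 control cells.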
